A study of Mus musculus with 4 samples.

Results

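The thrombospondins are a family of secreted, multimeric glycoproteins of the extracellular matrix. The 5 mouse family members Thbs1, Thbs2, Thbs3, Thbs4 and Comp were taken by gene name from the 49671 genes of a bulk RNA-seq table, and each name matched 1 gene. The family was selected on the measured CPM of basal tip and duct, because Thbs1 was among the most abundant transcripts and lay higher in the 2 duct libraries than in either tip library. The direction of Thbs1 between tip and duct is therefore a description here and carries no test, and the same holds for the other members in that contrast. All 5 reached the minimum for the comparison, an average of 1 CPM (reads per 1000000 reads of a library), as did 17865 genes in all.

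The 4 libraries were made from basal cells, the outer layer of the prostate epithelium, sorted from the ventral lobe in males. Gland tips gave 2 libraries and ducts gave 2, named tip 1, tip 2, duct 1 and duct 2 after their titles. Tips were parted from ducts in the lobes of 20 mice, and cells with high EpCAM and high CD49f were sorted once CD45+, CD31+ and CD140a+ cells had been gated out. The titles give postnatal day 13 and the age field days 10 to 12, and the cell type field reads tip for all 4 libraries, so that groups rest on the titles. Strain, genotype and treatment were not given in the sources used here, and no label ties a library to its own animals.

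Thrombospondin-1 and thrombospondin-2 form trimers and carry type 1 repeats, through which they bind CD36 and latent TGF-beta. Thrombospondin-3, thrombospondin-4 and COMP form pentamers and lack these repeats. All share a carboxy-terminal part of calcium-binding repeats and a lectin-like domain, which binds integrins, collagens and CD47. Thrombospondin-1 can activate latent TGF-beta, restrains vessel growth and is induced within hours by serum and growth factors. Thrombospondin-2 shapes collagen fibrils and matrix protease levels, and COMP and thrombospondin-4 are best known in cartilage, tendon and muscle attachments.

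The coding sequences were compared first, because related genes can share reads. Thbs1 and Thbs2 were the same at 70.0% of 3428 aligned coding bases, and the other pairs at 64.4% to 72.1%. No stretch of 50 bases in any annotated transcript of 1 member occurred in another member. The longest identical run between Thbs1 and Thbs2 was 26 bases. It lies in exon 15 of both genes, at chr2:118120893-118120918 on the plus strand for Thbs1 and at chr17:14676284-14676309 on the minus strand for Thbs2 (GRCm38). It is shown with 60 coding bases on each side, capitals marking the identical run, since this is where the 2 most abundant members are hardest to tell apart.
Thbs1: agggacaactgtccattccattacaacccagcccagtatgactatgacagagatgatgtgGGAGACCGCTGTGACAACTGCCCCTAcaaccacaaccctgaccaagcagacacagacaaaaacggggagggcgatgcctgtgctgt
Thbs2: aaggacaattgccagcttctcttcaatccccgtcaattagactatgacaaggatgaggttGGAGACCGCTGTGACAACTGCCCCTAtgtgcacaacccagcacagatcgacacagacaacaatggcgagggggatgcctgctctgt
The bases outside the run differ at many positions, and the Thbs4 and Comp pair also had 26 bases in its longest run.

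Antisense overlap was looked for as well, since the strand setting of the counting is not given in the sources used here. Of 6022 different 50-base stretches in Thbs1 transcripts, 114 also occurred in Gm29233, a non-coding gene on the opposite strand that was listed at 0 in all 4 libraries. Of 5139 stretches in Thbs3 transcripts, 182 occurred in Mtx1, a mitochondrial membrane protein gene on the opposite strand, which measured 6.30 and 3.45 CPM in the tips versus 7.70 and 7.25 CPM in the ducts. Reads of Thbs3 and Mtx1 could not be told apart there without strand, and the Thbs3 values are uncertain to that extent. Thbs2, Thbs4 and Comp shared no 50-base stretch with another annotated gene.

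Library depth ran from 1439004 to 1742531 recovered reads, and 1 read was worth 0.574 to 0.695 CPM. All 10 basal markers had reads in all 4 libraries (summed level 10397 and 9702 CPM in the tips versus 14555 and 5809.95 CPM in the ducts). So did all 10 luminal markers (2055 and 1932 CPM versus 2942 and 1314 CPM). The duct libraries stood apart from each other: the 15 fibroblast markers summed to 2353 CPM in duct 1 and 6548 CPM in duct 2, against 3755 and 4497 CPM in tip 1 and tip 2, with none at 0. Pdgfra, which encodes the CD140a used to remove fibroblasts in the sort, measured 193 and 231 CPM in the tips versus 42.1 and 650 CPM in the ducts. Duct 2 also held 311 reads of Ins2, a pancreatic islet transcript listed at 0 in the other 3 libraries. In bulk samples, fewer cells of a type and less RNA per cell cannot be told apart.

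Thbs1, on chromosome 2 at 118111876 to 118127133, dominated the family. Its level was 3225 CPM in tip 1, 6621 CPM in tip 2, 11780.5 CPM in duct 1 and 10700.4 CPM in duct 2. Both duct libraries lay above both tip libraries, and the groups did not overlap. The group means were 4923 ± 2401 CPM in the tips versus 11240.4 ± 764 CPM in the ducts (SD, n = 2 each), a 2.28-fold higher mean in duct.

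Of the 5 members 1, Thbs1, lay higher in both duct libraries, as did 11.1% of the 17865 tested genes, and no member lay higher in both tip libraries, as did 28.5%. Since Thbs1 was chosen for this order, nothing is read from its place among those genes. Its log2 difference, duct minus tip, was 1.28 on the log2(CPM + 1) scale, with a pooled SD of 0.52 within groups, and 97.9% of tested genes had a lower difference. The median tested gene stood at -0.20 with the deposited scaling, -0.04 with TMM scaling and 0.00 with median-ratio scaling, and Thbs1 lay 1.48 above that median as deposited. With TMM and median-ratio scaling its difference was 1.47 and 1.51. Without tip 1 it was 0.76, and without tip 2 it was 1.80.

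Thbs1 differed more between the tip libraries than between the duct libraries. Tip 2 was 2.05-fold above tip 1, with a 95% counting interval of 1.98 to 2.12, whereas the duct libraries differed 1.1-fold. The closest values across the groups, duct 2 and tip 2, were 1.62-fold apart (1.58 to 1.66). These intervals hold the error of counting alone, as no label says that reads were reduced to single molecules, and that error was small because 4641 to 18474 reads per library came from this gene. With 2 libraries a group, the smallest 2-sided p of an exact permutation test is 0.333.

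**Figure D1:**
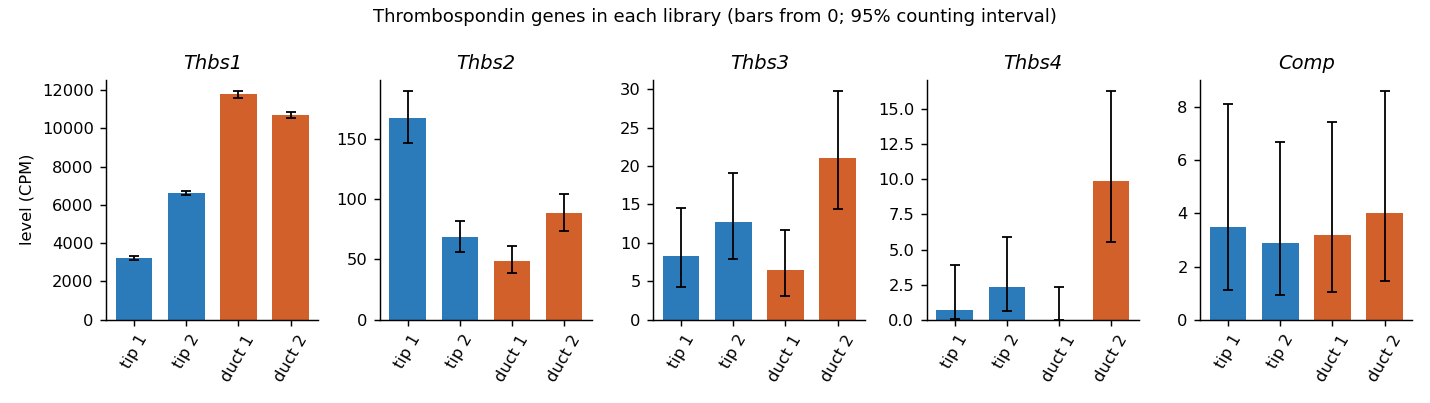
Level in CPM (vertical axis, from 0, a separate scale for each gene) of the 5 thrombospondin genes in tip 1, tip 2 (blue), duct 1 and duct 2 (orange). Error bars are 95% counting intervals of a single library. Thbs1 runs from 3225 to 11780.5 CPM and stands highest in the 2 duct libraries, Thbs2 is highest in tip 1 at 168 CPM, and the other 3 genes stay at or under 21.1 CPM.

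By abundance Thbs1 held rank 16 (tip 1), 7 (tip 2), 3 (duct 1) and 7 (duct 2) among all genes. It took 0.323% and 0.662% of all reads in the tip libraries and 1.18% and 1.07% in the duct libraries. In duct 1 the 2 genes above it were Rn18s-rs5, a ribosomal RNA gene, and Gm26917, a long non-coding RNA gene, so that no protein-coding gene had more reads. In tip 2 mt-Co1, a mitochondrially encoded subunit of cytochrome oxidase, was the 1 protein-coding gene above it, and in duct 2 it was Lars2, a mitochondrial tRNA synthetase. In tip 1 there were 8 protein-coding genes above it: mt-Co1, Egr1, Dst, Eef1a1, Fosb, Nr4a1, Fos and Igfbp5. These genes were named after their values were seen. The ribosomal RNA gene Rn18s-rs5 was highest in duct 2, at 18961 and 18817 CPM in the tips versus 22131 and 38095 CPM in the ducts. Per kilobase of annotated exon, a scale on which genes of different length can be set side by side, Thbs1 ranked 39, 20, 16 and 16 in the same order of libraries.

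**Figure D2:**
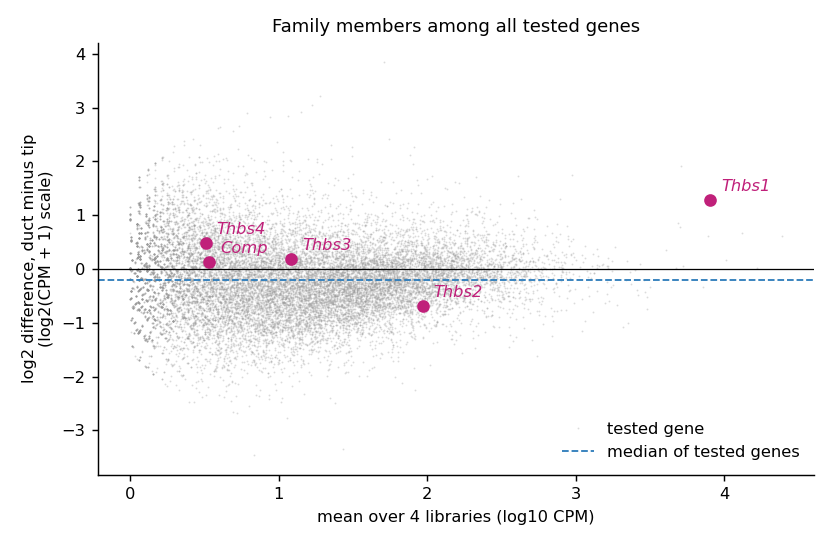
Each grey point is 1 of 17865 tested genes, placed by its mean over the 4 libraries (horizontal axis, log10 CPM) and its log2 difference, duct minus tip (vertical axis, log2(CPM + 1) scale). The 5 members are in magenta and the dashed line is the median of tested genes at -0.20. Thbs1 lies at the far right at 1.28, Thbs2 lies below the dashed line at -0.69, and Thbs3, Thbs4 and Comp lie between 0.13 and 0.48.

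Thbs2, on chromosome 17 at 14665500 to 14694235, measured 168 CPM in tip 1, 68.3 CPM in tip 2, 49.2 CPM in duct 1 and 88.3 CPM in duct 2. Tip 1 stood highest and duct 1 lowest, and the groups overlapped because duct 2 lay above tip 2. The counting interval of tip 2 (56.6 to 81.7 CPM) overlapped those of duct 1 (38.7 to 61.4 CPM) and duct 2 (74.0 to 105 CPM). That of tip 1 (147 to 190.0 CPM) lay above the other 3. The group means were 118 ± 70.1 CPM in the tips versus 68.7 ± 27.7 CPM in the ducts (SD, n = 2 each). The log2 difference of -0.69 was smaller in size than the pooled SD of 0.76, and ran from -1.33 without tip 2 to -0.05 without tip 1. It was -0.28 without duct 1 and -1.11 without duct 2.

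Thbs1 and Thbs2 had their extremes in the same libraries but at opposite ends. Tip 1 held the lowest Thbs1 level and the highest Thbs2 level, and duct 1 the highest Thbs1 level and the lowest Thbs2 level. The low end of Thbs2 is not firm, as the counting intervals of duct 1 and tip 2 overlapped. The ratio of Thbs1 to Thbs2 per kilobase was 22.2 (tip 1), 112 (tip 2), 276 (duct 1) and 140 (duct 2). Both tip values lay below both duct values. This ratio needs no scaling between libraries, since both genes are read within 1 library. Thbs1 was chosen for lying higher in duct, and Thbs2 alone overlapped between groups, so nothing is read from the separation of the ratio. From tip 1 to duct 1, Thbs1 differed 3.65-fold upwards and Thbs2 differed 3.41-fold downwards (counting intervals 3.54 to 3.77 and 2.63 to 4.47).

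Thbs3, on chromosome 3 at 89215180 to 89226837, measured 8.35 CPM in tip 1, 12.7 CPM in tip 2, 6.4 CPM in duct 1 and 21.1 CPM in duct 2. These levels rest on 12, 22, 10 and 32 reads. The duct libraries held both the lowest and the highest value, 3.30-fold apart (counting interval 1.59 to 7.54), and the tip libraries lay between them. The log2 difference was 0.18 with a pooled SD of 0.84, and it turned to -0.61 without duct 2 and to -0.09 without tip 1.

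Thbs4, on chromosome 13 at 92751590 to 92794818, measured 0.70 CPM in tip 1, 2.30 CPM in tip 2, 9.90 CPM in duct 2 and no reads in duct 1. The reads numbered 1, 4, 0 and 15, and a floor of 3 reads puts duct 1 at up to 1.91 CPM, while the 95% counting interval of its 0 reads reaches 2.35 CPM. Duct 2 was at least 5.17-fold higher than duct 1 against that floor, and with the counting error of the ratio the lower bound was 3.71-fold. The log2 difference was 0.48 with a pooled SD of 1.79. It was -1.24 without duct 2, 2.20 without duct 1 and 0.03 with a pseudocount of 0.25 CPM. On recovered reads it was 1.82 in edgeR and 1.95 in DESeq2, so neither its size nor its sign was settled by these libraries.

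Comp, on chromosome 8 at 70373558 to 70382066, was the most even member. It measured 3.5 CPM in tip 1, 2.9 CPM in tip 2, 3.2 CPM in duct 1 and 4 CPM in duct 2, from 5, 5, 5 and 6 reads. The log2 difference was 0.13 with a pooled SD of 0.16. The groups overlapped as deposited, and with TMM scaling the lowest duct value was 1.05 times the highest tip value. At 5 or 6 reads a library, a difference between tip and duct was not detectable at this depth.

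Thbs3 and Thbs4 shared an order of measured levels over the libraries: lowest in duct 1, then tip 1, then tip 2, and highest in duct 2. These levels rest on 0 to 32 reads a library. For both genes the counting intervals of libraries next to each other in this order overlapped, while those of duct 1 and duct 2 did not. The summed fibroblast markers followed the same order, as did Pdgfra, Pdgfrb, Lum, Vim, Dpt, Fbln1, Mfap5, Pi16 and Fap. Dcn, the largest part of that sum in every library, did not, at 2529 and 2656 CPM in the tips versus 2002 and 2295 CPM in the ducts. Postn, Twist2, Cdh11, Thy1 and Gas1 did not follow it either. Endothelial markers (10 genes) summed to 110.1 and 119.6 CPM in the tips versus 42.4 and 366.0 CPM in the ducts, again lowest in duct 1 and highest in duct 2, with 1 marker at 0 in duct 1. Smooth muscle markers (10 genes) summed to 1946 and 3256 CPM in the tips versus 732 and 2971 CPM in the ducts, with none at 0. The part of these markers in the Thbs3 and Thbs4 levels was not tested. Thbs1 had another order, with its highest level in duct 1, where the fibroblast, endothelial and smooth muscle sums were lowest. The basal and luminal sums were also highest in duct 1, but they were lowest in duct 2. The part of any cell type in the Thbs1 level was not tested.

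Markers of other cell types in which thrombospondins are known differed widely in level. The 8 platelet and megakaryocyte markers summed to 18.2 and 21.4 CPM in the tips versus 20.5 and 16 CPM in the ducts, with 4, 1, 5 and 2 of them at 0 in tip 1, tip 2, duct 1 and duct 2. The 10 leukocyte markers summed to 98.9 and 17.9 CPM in the tips versus 26.3 and 44.5 CPM in the ducts, with 0, 5, 5 and 1 at 0. The 8 tendon and cartilage markers summed to 812 and 553 CPM in the tips versus 457 and 324 CPM in the ducts, with 2, 0, 1 and 1 at 0, and most of that sum came from Fmod, which encodes fibromodulin, and the transcription factor gene Sox9. The 8 glial and neural markers summed to 42.5 and 64.4 CPM in the tips versus 22.5 and 202 CPM in the ducts, with 2, 2, 2 and 0 at 0. None of these 4 sums had the order of Thbs1, and neither did the basal, luminal, fibroblast, endothelial or smooth muscle sum. The glial and neural sum had the order of Thbs3 and Thbs4.

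**Figure D3:**
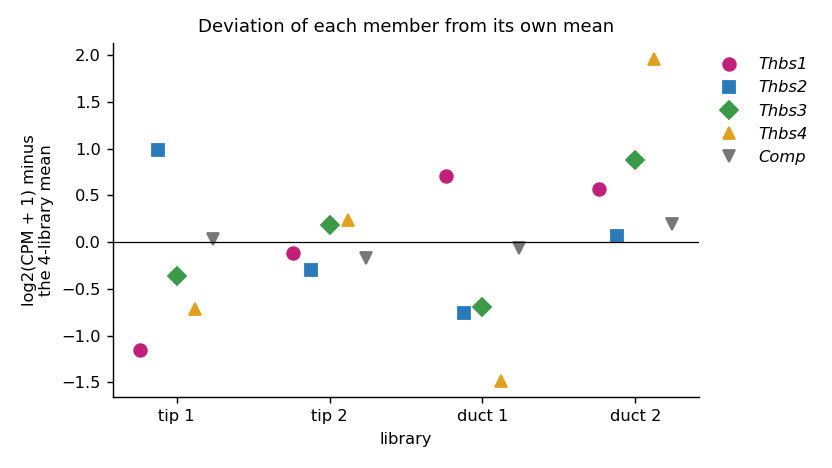
Deviation of each member from its own 4-library mean (vertical axis, log2(CPM + 1) scale) in each library (horizontal axis), with 1 symbol per gene. In duct 1 Thbs1 stands at 0.71, above its mean, while Thbs2, Thbs3 and Thbs4 stand between -1.48 and -0.70. In duct 2 Thbs3 and Thbs4 stand highest, at 0.88 and 1.96, and Comp stays between -0.17 and 0.19 throughout.

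The sequence before the start of Thbs3 and of Thbs4 is shown because these 2 genes had the same order of measured levels over libraries. The counting intervals do not fully resolve that order. Each is 250 bases from the RefSeq table of build GRCm38.p6, printed in the direction of transcription, with motif matches in capitals. Windows matched for 3 members, Thbs2, Thbs3 and Thbs4. Thbs3 is at chr3:89214930-89215179 on the plus strand, and Thbs4 at chr13:92794819-92795068 on the minus strand.
Thbs3: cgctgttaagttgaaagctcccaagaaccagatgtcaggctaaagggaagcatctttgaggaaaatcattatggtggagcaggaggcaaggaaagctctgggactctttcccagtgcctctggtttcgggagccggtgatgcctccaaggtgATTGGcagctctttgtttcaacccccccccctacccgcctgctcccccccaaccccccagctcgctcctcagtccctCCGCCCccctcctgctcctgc
Thbs4: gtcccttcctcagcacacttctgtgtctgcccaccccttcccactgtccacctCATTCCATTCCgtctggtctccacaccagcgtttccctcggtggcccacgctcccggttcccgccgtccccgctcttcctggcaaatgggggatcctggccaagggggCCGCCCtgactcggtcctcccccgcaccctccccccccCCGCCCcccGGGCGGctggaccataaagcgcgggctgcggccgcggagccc
The motifs searched on both strands were the GC box (GGGCGG), the CCAAT box (CCAAT), the TATA box (TATAAA), an AP-1 site (TGANTCA), a TEAD site (GGAATG), a SMAD box (GTCTAGAC) and the SRF CArG box. The window of Thbs3 held 1 GC box and 1 CCAAT box, and that of Thbs4 held 3 GC boxes and 2 TEAD letter matches that overlap each other. Among 32851 windows of the same length, 32.7% held a GC box, 33.9% a CCAAT box and 12.6% the TEAD letters. The GC box was the 1 motif found in both windows, and no motif overlapped another of a different kind. The bases G and C made up 58.8% of the Thbs3 window and 70.8% of the Thbs4 window, beside a median of 52.4% over all windows. The matches describe letters in these windows only.

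Of the family's reads, Thbs1 made up 94.7% (tip 1), 98.7% (tip 2), 99.5% (duct 1) and 98.9% (duct 2). The exact Clopper-Pearson 95% intervals were 94.1% to 95.3%, 98.5% to 98.9%, 99.4% to 99.6% and 98.7% to 99.0% in that order. Tip 1 stood apart with the lowest share, and its interval did not touch the others. Tip 2 and duct 2 had overlapping intervals. The mean share was 97.9% and stayed at 98.1% when reads were divided by exon length.

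Thbs2 supplied most of the rest, at 4.92% (tip 1), 1.02% (tip 2), 0.415% (duct 1) and 0.816% (duct 2). Thbs3 gave 0.0539% to 0.245%, Thbs4 0 to 0.0913% and Comp 0.0269% to 0.102%. Both tip libraries had a higher Thbs2 share than both duct libraries. The share moves with Thbs1, the larger part of the total and chosen for its order, and not with Thbs2 alone.

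**Figure D4:**
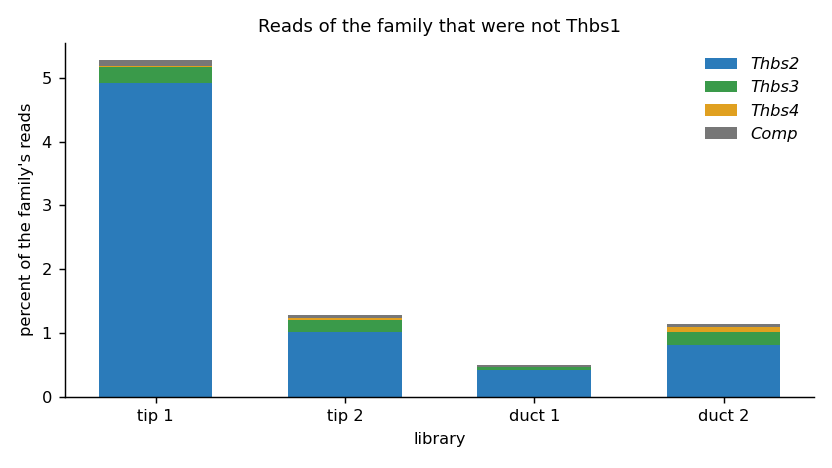
Percent of the family's reads that came from members other than Thbs1 (vertical axis, stacked from 0) in each library (horizontal axis). Thbs2 is the largest part in every library, from 4.92% in tip 1 to 0.415% in duct 1.

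Per kilobase of exon, Thbs1 stood at 531, 1090.2, 1940 and 1762 CPM per kilobase in tip 1, tip 2, duct 1 and duct 2. Thbs2 stood at 23.9, 9.75, 7.02 and 12.6 CPM per kilobase. The ranges of Thbs1 and Thbs2 did not overlap, nor did those of Thbs2 and the next member. Thbs3 ran from 1.33 to 4.37, Comp from 0.977 to 1.35 and Thbs4 from 0 to 3.01 CPM per kilobase, and these 3 ranges overlapped. On this scale Thbs1 was 307 to 1462 times Thbs3.

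The genes whose profile over the 4 libraries was most like that of each member were taken by the smallest root-mean-square difference of centred log2 levels, among 6591 genes averaging 20 CPM or more. With 4 libraries such likeness is a description and has no test. For Thbs1 they were Fam107b (0.07), Ndrg1 (0.09), Abl2 (0.13), Tagln2 (0.14) and Stk40 (0.15). Ndrg1 is a stress-responsive gene, Abl2 encodes a tyrosine kinase that binds actin, and Tagln2 an actin-binding protein. Fam107b measured 133 and 253 CPM in the tips versus 459 and 392 CPM in the ducts, the same order as Thbs1 at a much lower level.

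For Thbs2 they were Kif3b (0.10), a kinesin motor, Prps2 (0.10), an enzyme of nucleotide synthesis, Fem1a (0.12), Rab5b (0.13), an endosomal GTPase, and Bcl9l (0.15), a beta-catenin cofactor. Kif3b measured 39.0 and 18.4 CPM in the tips versus 12.2 and 20.5 CPM in the ducts. For Thbs3 they were Col4a5 (0.06), a chain of basement membrane collagen, Ptprj (0.06), a receptor tyrosine phosphatase, Dact1 (0.08), a regulator of Wnt signalling, Pros1 (0.09), which encodes protein S, and Gjc1 (0.10), a connexin. Col4a5 measured 220 and 315 CPM in the tips versus 188 and 511 CPM in the ducts, with the Thbs3 order of duct 1, tip 1, tip 2 and duct 2. Thbs4 and Comp had means under 5 CPM and were not matched.

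The genes around the family were read from lists of its receptors, growth factor partners, modifying enzymes and matrix partners. Further lists held other proteins with type 1 repeats, TGF-beta target genes, immediate early genes and YAP/TAZ target genes. No gene passed an adjusted p of 0.05 in limma (0% of 17865, with 7.42% at an unadjusted p under 0.05 and a smallest adjusted p of 0.667). Of the unadjusted calls, 1.61% of tested genes were higher in duct and 5.82% higher in tip. The count-based edgeR passed 0 genes after adjustment and 1058 before it, and DESeq2 passed 2 and 416. List genes are therefore given as values, and their counts are to be read against 11.1% of tested genes higher in both duct libraries and 28.5% higher in both tip libraries. These backgrounds were 17.7% and 21% with TMM scaling, and 19.2% each with median-ratio scaling. A positive log2 difference was found in 36.9% of tested genes.

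Among 16 thrombospondin receptors, 4 lay higher in both duct libraries and 1 in both tip libraries, and the median log2 difference was -0.01, beside -0.20 for all tested genes. Lrp8, a reelin receptor that also binds thrombospondin, measured 6.30 and 4.05 CPM in the tips versus 14.1 and 12.6 CPM in the ducts. Cd36, a scavenger receptor for type 1 repeats, measured 4.90 and 4.05 CPM in the tips versus 5.15 and 28.4 CPM in the ducts, so that duct 2 alone stood far from the tips. Itgb1, the beta-1 integrin subunit, measured 641 and 802 CPM in the tips versus 834 and 946 CPM in the ducts. Vldlr, the other lipoprotein-type receptor of the list with separate groups, lay higher in tip (126 and 144 against 86.1 and 108 CPM), an order that did not hold with TMM or median-ratio scaling. Cd47, the receptor for the carboxy-terminal domain, was named after its values were seen. It was level, at 115.4 and 112.5 CPM in the tips versus 115.45 and 115.95 CPM in the ducts. Its place among the 4 rests on a gap between tip 1 and duct 1 smaller than the worth of 1 read. That of Cd36 rests on 7 reads in tip 1 and 8 in duct 1.

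Of 14 latent TGF-beta activation genes, 2 lay higher in both duct libraries and 2 in both tip libraries (median 0.16). These counts were 3 and 2 with TMM scaling, and 3 and 0 with median-ratio scaling. The receptors Tgfbr1 (132 and 169 against 186 and 179 CPM) and Tgfbr2 (147 and 185 against 264 and 210 CPM) lay higher in duct. Ltbp1, a binding protein of the latent complex, lay higher in tip at 317 and 274 against 258 and 235 CPM. Itgb8, an integrin subunit that activates the latent complex, measured 197 and 156 CPM in the tips versus 147 and 105 CPM in the ducts. The tip-higher order of Ltbp1 and Itgb8 did not hold with median-ratio scaling.

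Of 10 TGF-beta target genes, 4 lay higher in both duct libraries and 1 in both tip libraries (median 0.37). Pmepa1, a feedback inhibitor of the pathway, measured 32 and 49.95 CPM in the tips versus 148 and 111 CPM in the ducts, with a log2 difference of 1.65 ± 0.34 (SE). Smad7, an inhibitory SMAD, measured 45.9 and 33.9 CPM in the tips versus 59.95 and 85.7 CPM in the ducts. Ctgf, a matricellular protein gene that is also on the YAP/TAZ list, measured 45.9 and 62.0 CPM in the tips versus 86.1 and 87.7 CPM in the ducts. Tagln, which is a smooth muscle marker as well, lay higher in tip at 5.60 and 13.2 against 1.3 and 4.65 CPM, an order lost with TMM and median-ratio scaling. Pmepa1 was known from earlier results of these libraries to lie higher in duct, and the list is not independent evidence of a direction.

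Of the 5 tested enzymes that modify type 1 repeats, 1 lay higher in both duct libraries and 4 in both tip libraries (median -0.32). With TMM and with median-ratio scaling 1 lay higher in both tip libraries. Pofut2, which adds fucose to the repeats, measured 37.6 and 33.3 CPM in the tips versus 40.2 and 51.4 CPM in the ducts. The C-mannosyltransferase family genes Dpy19l4 (89.7 and 78.1 against 54.3 and 47.5 CPM), Dpy19l3 (32.7 and 41.9 against 20.5 and 27.7 CPM) and Dpy19l1 (38.3 and 39.1 against 28.1 and 33.6 CPM) lay higher in tip as deposited. Dpy19l2 had no reads.

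Among 18 tested genes of other proteins with type 1 repeats, 1 lay higher in both duct libraries and 2 in both tip libraries (median -0.15). Spon2, a secreted matrix protein gene, measured 172 and 85.6 CPM in the tips versus 35.1 and 31.0 CPM in the ducts, with both tip libraries above both duct libraries and tip 1 highest. Its log2 difference was -1.85 ± 0.38 (SE). Adamtsl2, a microfibril-associated protein gene, measured 4.90 and 9.20 CPM in the tips versus 0 and 4 CPM in the ducts, an order lost with either scaling. Adamtsl4, of the same ADAMTS-like group, measured 28.5 and 32.8 CPM in the tips versus 37.7 and 36.3 CPM in the ducts.

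Matrix partners and proteases gave 1 of 15 tested genes higher in both duct libraries and 1 in both tip libraries (median -0.06). Adamts1, a metalloprotease that cuts thrombospondin-1 and thrombospondin-2, measured 981 and 740 CPM in the tips versus 1082 and 1020 CPM in the ducts. Dcn, which encodes the small proteoglycan decorin and is also a fibroblast marker, measured 2529 and 2656 CPM in the tips versus 2002 and 2295 CPM in the ducts, an order lost with TMM and median-ratio scaling. The other 13 tested genes overlapped between groups. The list summed to 7060 and 8094 CPM in the tips versus 5562 and 10556.5 CPM in the ducts, the order that Thbs3 and Thbs4 had.

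Immediate early genes are induced within minutes by serum and stress. Of 18, 1 lay higher in both duct libraries and 7 in both tip libraries (median -0.51), and 5 had a positive log2 difference, beside 36.9% of tested genes. Zfp36, an RNA-binding feedback gene, measured 1008 and 778 CPM in the tips versus 497 and 472 CPM in the ducts. Atf3, a stress-induced transcription factor gene, measured 1999 and 1057 CPM in the tips versus 830 and 520 CPM in the ducts. Jun (2066 and 1284 against 998 and 885 CPM) and Ier2 (459 and 316 against 233 and 231 CPM) had the same order, with tip 1 highest in each. In tip 1, where Thbs1 was lowest, the list summed to 28347 CPM, against 16691 in tip 2, 17063 in duct 1 and 12556 CPM in duct 2.

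YAP/TAZ targets, a class that includes matricellular genes and responds to matrix stiffness, gave 4 of 22 genes higher in both duct libraries and 4 in both tip libraries (median 0.05). With TMM scaling 2, and with median-ratio scaling 1, lay higher in both tip libraries. Besides Ctgf, the genes named were Gadd45a, a growth arrest gene (82.1 and 44.8 against 35.1 and 30.4 CPM), Ptpn14, a phosphatase that binds YAP (914 and 655 against 619 and 288 CPM), and Rbms3, an RNA-binding protein gene (524 and 425 against 420 and 285 CPM), all 3 higher in tip as deposited.

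**Figure D5:**
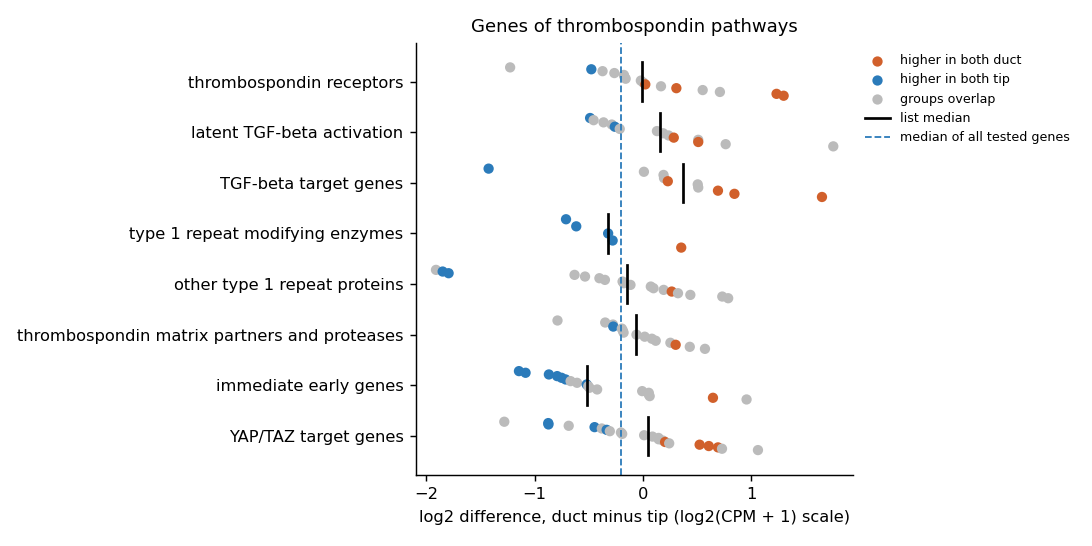
Log2 difference, duct minus tip (horizontal axis, log2(CPM + 1) scale), of the tested genes of each list (rows). Orange points lay higher in both duct libraries, blue points in both tip libraries, and grey points overlapped between groups. Black bars are list medians, from -0.51 for immediate early genes to 0.37 for TGF-beta target genes, and the dashed line is the median of all tested genes at -0.20.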

How the data were processed

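Values in the table are deposited signal: reads counted per gene, scaled to about 20 times 1000000 in each library and rounded up, as found from the values. STAR, HTSeq and GRCm38 (mm10) are named, per the submitters' processing notes. Their versions, the annotation and the strand setting: not given in the sources used here. Values were divided by 20 to give CPM. Whole reads were recovered from the step between values (100% of values within 0.1 read). Genes averaging 1 CPM or more were compared by limma 3.58.1 (R 4.3.3) on log2(CPM + 1), with variance trend and robust moderation, duct against tip, 2-sided, with Benjamini-Hochberg adjustment at 0.05. The fit was also run on simulated reads with known changes. Those reads did not copy the marker differences between these libraries, so they do not vouch for the fit here. Log2 differences understate those of low genes. edgeR 4.0.16 and DESeq2 1.42.0 on recovered reads, TMM and median-ratio scaling, other pseudocounts and filters, a replicate block and each library left out were alternatives. No label names separate animals, so p-values reflect only how these samples varied, possibly for technical reasons. The 5 members and all lists were chosen with earlier results of these data known. List genes were named by rule: up to 4 with non-overlapping groups, by smallest p. Exon lengths and coordinates came from GENCODE M21 (GRCm38). The older symbol B3galtl of the list was matched to B3glct.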

Additional observations from a re-analysis of the deposited data

How the results depend on the processing

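Of 68 alternatives for the members, 62 moved by less than the spread within groups, 3 moved further and 3 reversed. The further ones were Comp with median-ratio scaling (0.31), edgeR (0.37) and DESeq2 (0.42). These counts do not measure robustness. Another filter or the replicate block cannot change the log2 difference of a member that is kept. The spread was each member's own pooled SD, which was 1.79 for Thbs4 and 0.16 for Comp. Thbs4 at 1.95 in DESeq2, against 0.48 in the main setting, therefore counted as moving by less than its spread. With 1 library left out the log2 difference ran from 0.76 to 1.80 for Thbs1, -1.33 to -0.05 for Thbs2, -0.61 to 0.97 for Thbs3, -1.24 to 2.20 for Thbs4 and 0.0037 to 0.26 for Comp. The lone library of a group was then assumed to vary like the other group. The Thbs1 share ran from 97.4% to 99.0%. No cause was tested. Depth limits Thbs3, Thbs4 and Comp, which had 0 to 32 reads a library.

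Genes called by limma numbered 0, with 94 without a filter, 0 to 904 with 1 library left out (673 without duct 1, 904 without duct 2) and 2 with DESeq2. Genes higher in both duct libraries numbered 1986 of 17865, with 3157 under TMM and 3433 under median-ratio scaling. At a mean of at least 5 CPM they numbered 1190, of the fewer 11785 genes tested there. With 1 library left out they numbered 3630 to 5056, as 1 library fewer had to separate. The title numbers are shared by tip and duct, but the sample descriptions read T1 and T3 for the tips and D1 and D2 for the ducts. No label says that a number marks a common animal or day. Libraries with the same title number deviated together at r = 0.15 across genes. With the replicate block 0 genes passed after adjustment and 1636 before it, against 1326 without the block.

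List counts under other settings were chosen after seeing the data. Higher in both tip libraries were, with TMM and with median-ratio scaling alike, 0 receptors, 0 TGF-beta targets, 1 repeat-modifying enzyme, 1 other repeat protein and 0 matrix partners. Median-ratio scaling left 0 latent TGF-beta genes. YAP/TAZ targets numbered 2 with TMM and 1 with median-ratio scaling, and other repeat proteins 1 at a mean of at least 5 CPM. Higher in both duct libraries were 2 matrix partners with TMM, median-ratio scaling or no filter, and 2 immediate early genes with either scaling. With 1 library left out the counts higher in duct ran from 4 to 11 for receptors, 4 to 6 for latent TGF-beta genes, 5 to 7 for TGF-beta targets, 2 to 10 for other repeat proteins, 1 to 13 for matrix partners, 1 to 5 for immediate early genes and 4 to 9 for YAP/TAZ targets. Those higher in tip ran from 1 to 6, 3 to 5, 1 to 2, 2 to 12, 1 to 12, 7 to 14 and 5 to 10 in the same order. Groups separate more easily with 1 library fewer. Over all 17865 tested genes, those higher in duct then numbered 3630 to 5056, against 1986 with every library kept. Those higher in tip were not counted over all genes in these settings. Nothing is read from these ranges about the lists. Of 558 alternatives for named genes, 522 gave the same sign and call, 26 passed where they had not and 10 reversed. The reversals were in the 5 genes most like Thbs3 with 1 library left out: Col4a5 (-0.48 to 0.95), Dact1 (-0.52 to 0.87), Gjc1 (-0.56 to 1.18), Pros1 (-0.56 to 0.78) and Ptprj (-0.65 to 0.97). Another filter or the replicate block could not change a sign.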
